A study of Mus musculus with 20 samples.

Results

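The genes described here encode lipid droplet proteins and lipases: Plin2, Plin4, Plin5, Cidea, Cideb, Cidec, G0s2, Pnpla2, Pnpla3 and Lipe. They were chosen by symbol, and all 10 were measured, each by 1 probe set, among 16464 named genes. Liver RNA of male C57BL/6 mice aged 10 weeks was hybridised to 20 Affymetrix arrays, 5 in each of 4 groups, after 25 days of oral gavage. The groups were EE2 (ethinylestradiol, 3.70 mg/kg) dissolved in sunflower oil, sunflower oil alone, chlorpromazine (CPZ) at 10 mg/kg in PBS, and PBS alone, so every mouse had been gavaged and each drug has its own vehicle. EE2, a man-made estrogen, and CPZ, a drug against psychosis, can each impair bile flow. Whether every array stands for its own mouse is not stated in the labels, so the p-values cover the variation among these samples only.

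Hepatocytes store triglyceride in lipid droplets, which are oil cores under a single layer of phospholipid and proteins. Perilipins (Plin) coat the droplet and limit the access of lipases. CIDE proteins act at contacts between droplets, where Cidea and Cidec promote the transfer of lipid into larger droplets, while Cideb is known in hepatocytes for loading lipid onto very low density lipoprotein. Pnpla2, also called ATGL, cuts the first fatty acid from triglyceride, G0s2 inhibits Pnpla2, and Lipe, the hormone-sensitive lipase, cuts the diglyceride that Pnpla2 leaves.

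Values are log2 levels as deposited, with 1 level per gene and array, and precision is limited by having 5 arrays a group. A difference is between group means on the log2 scale, tested gene by gene with limma over all 20 arrays and called at an adjusted p under 0.05 (Benjamini-Hochberg across the 16464 genes). SE is limma's standard error and SD the spread of 5 arrays. The lower quartile over genes was 3.06 on EE2 arrays and 3.16 on the other arrays, on average. Array probes lose proportion near such low levels, so the folds of Cidea, Cidec and Pnpla3 may be understated. Of 6 measured hepatocyte markers 2 rose and 3 fell with EE2: Tat rose by 1.09, Serpina1a fell by 0.47 and Apoa1 fell by 0.28, while Alb, at 14.15 in EE2 livers and 14.16 in oil livers, was not called. Macrophage markers were higher with EE2 for 8 of 11 measured genes, and their mean level per array ran from 7.74 to 8.35 in EE2 livers and from 6.73 to 7.03 in oil livers. CPZ arrays 1 and 11 and PBS array 20 stood apart in the acute phase gene Lcn2, at 9.39 to 10.41 against 5.01 to 6.34 on the other 7 CPZ and PBS arrays, and the CPZ differences, the vehicle differences with an unadjusted p under 0.05 and the differences between responses are also given with these arrays left out.

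The first comparison asked what EE2 changed relative to its sunflower oil vehicle. Of the 10 genes 3 were higher and 4 lower in EE2 livers. Over all genes 45.9% were called, 19.2% higher and 26.7% lower, so many genes outside lipid storage were called too. Every EE2 array had a higher median over genes, 4.64 to 4.67, than every other array, 4.47 to 4.54, so the deposited EE2 differences carry this shift. With each array centred on its median 3 of the 10 were higher and 6 lower, as Plin2 and Plin5 were then called lower. Of all called genes 17.4% were then higher, against 41.9% as deposited. Among CIDE genes Cidea and Cidec rose and Cideb fell, and among the lipolysis genes Pnpla2 rose while its inhibitor G0s2 and the downstream lipase Lipe fell. The 3 perilipins among the 10 genes had negative differences, and Plin4 was called. Plin3, a perilipin outside the 10, went the other way and rose by 0.45 (SE 0.09, adjusted p = 4.78e-04 from limma). The median size of the difference, without its sign, was 0.47 over the 10 genes and 0.18 over all genes, and the signed medians were -0.16 and -0.07. In whole tissue, fewer cells of a type and less RNA per cell cannot be told apart.

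**Figure D1:**
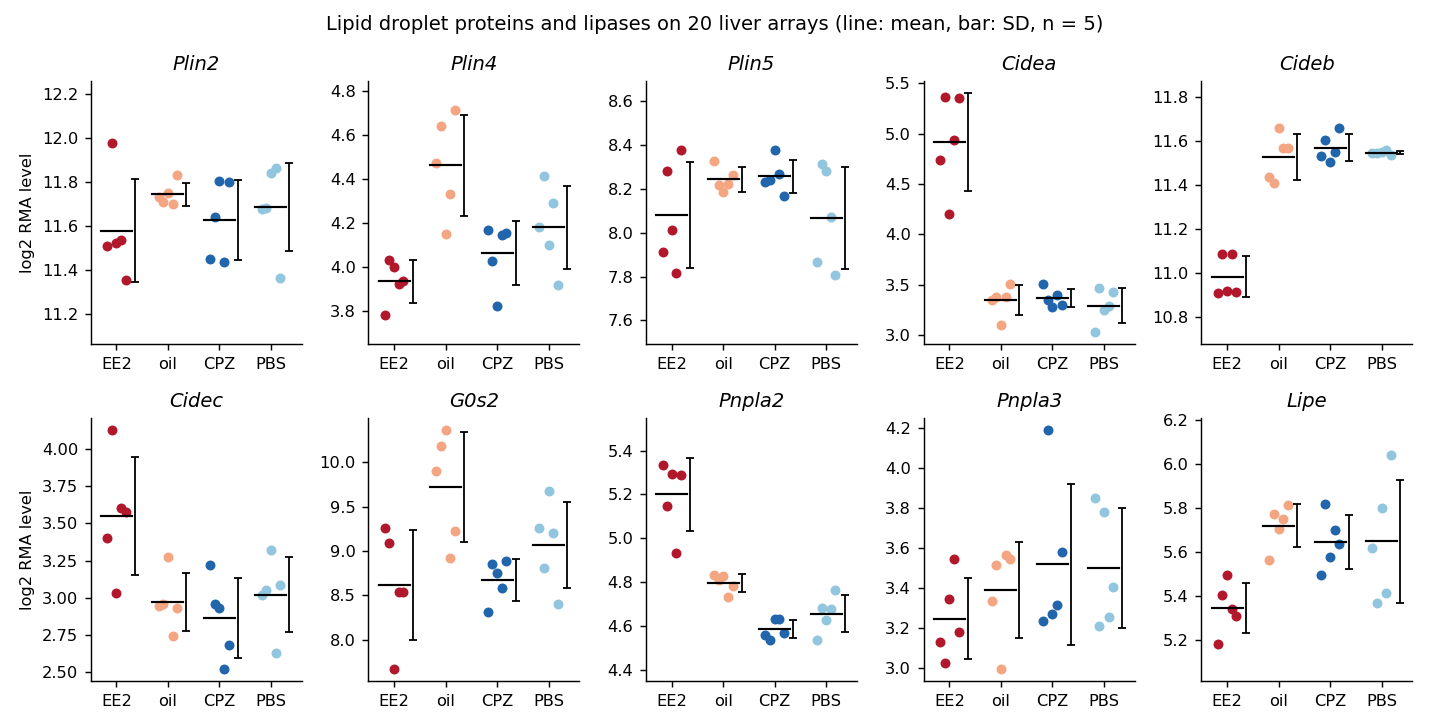
The log2 level of each of the 10 genes on every array, with EE2 left of its oil vehicle and CPZ left of its PBS vehicle; each panel has its own axis, lines are means and bars SD over 5 arrays. Cidea and Pnpla2 lie above all oil arrays in EE2 livers, and Plin4, Cideb and Lipe lie below them.

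Cidea (Entrez gene 12683), known best from brown fat and from fatty liver, showed the largest rise among the 10 genes. It stood at 4.74, 5.37, 4.20, 4.94 and 5.36 on EE2 arrays 9, 13, 15, 17 and 18, against 3.35, 3.38, 3.10, 3.38 and 3.51 on oil arrays 2, 5, 6, 8 and 16. Every EE2 array lay above every oil array, and the EE2 arrays spread far more widely than the oil arrays. The difference was 1.58 (SE 0.16, 2.98-fold, adjusted p = 5.30e-08 from limma). The CPZ arrays, at 3.28 to 3.51, and the PBS arrays, at 3.03 to 3.47, held Cidea at the level of the oil arrays, close to the lower quartile.

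Cidec (Entrez gene 14311), the close relative of Cidea that forms the large droplets of white fat, rose less. It had levels of 3.40, 4.13, 3.03, 3.60 and 3.57 on EE2 arrays 9, 13, 15, 17 and 18, against 2.94, 2.96, 3.28, 2.74 and 2.94 on oil arrays 2, 5, 6, 8 and 16. The groups overlapped, because EE2 array 15 lay within the oil range, and both groups lay near the lower quartile. The difference was 0.58 (SE 0.16, 1.49-fold, adjusted p = 0.00709 from limma). Leaving out each array in turn gave 0.43 to 0.70, and Cidec was called each time.

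Cideb (Entrez gene 12684) ran the other way at a level far above the lower quartile. Its levels were 10.91, 11.08, 10.92, 11.09 and 10.91 on EE2 arrays 9, 13, 15, 17 and 18, against 11.44, 11.41, 11.66, 11.57 and 11.57 on oil arrays 2, 5, 6, 8 and 16. All EE2 arrays lay below all oil arrays, and also below all CPZ and PBS arrays, which spanned 11.50 to 11.66 and 11.54 to 11.56. Cideb fell by 0.55 (SE 0.05, 1.46-fold, adjusted p = 5.96e-08 from limma).

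Plin4 (Entrez gene 57435), a coat protein known mainly from fat cells and muscle, stood at 3.78, 4.03, 4.00, 3.92 and 3.93 on EE2 arrays 9, 13, 15, 17 and 18, against 4.47, 4.64, 4.15, 4.33 and 4.71 on oil arrays 2, 5, 6, 8 and 16. The groups did not overlap, and Plin4 fell by 0.53 (SE 0.10, 1.44-fold, adjusted p = 2.72e-04 from limma). The PBS arrays, at 3.91 to 4.41, overlapped with both groups. All EE2 levels of Plin4 lay below the array medians, which ran from 4.47 to 4.67, so its fold may be understated too.

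Plin2 (Entrez gene 11520), the main droplet coat protein of hepatocytes, had levels of 11.51, 11.98, 11.52, 11.53 and 11.35 on EE2 arrays 9, 13, 15, 17 and 18, against 11.73, 11.71, 11.75, 11.70 and 11.83 on oil arrays 2, 5, 6, 8 and 16. On EE2 array 13 it lay above all oil arrays, and on the other EE2 arrays below them. The difference was -0.17 (95% confidence interval -0.39 to 0.06, adjusted p = 0.215 from limma) and was not called. Without EE2 array 13 it was -0.27 and was called (adjusted p = 0.0298 from limma). With all arrays kept and each centred on its median it was also called (-0.33, adjusted p = 0.0116 from limma). The call thus depended on that array and on the scaling.

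Plin5 (Entrez gene 66968), the perilipin of tissues that burn fat, ties droplets to mitochondria. It stood at 7.91, 8.28, 8.01, 7.82 and 8.38 on EE2 arrays 9, 13, 15, 17 and 18, against 8.33, 8.22, 8.18, 8.22 and 8.26 on oil arrays 2, 5, 6, 8 and 16. The EE2 arrays spread to both sides of the oil arrays (SD 0.24 with EE2, 0.06 with oil). The difference was -0.16 (95% confidence interval -0.38 to 0.05, adjusted p = 0.206 from limma) and was not called.

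Among the lipases, Pnpla2 (Entrez gene 66853) had levels of 5.33, 5.15, 5.29, 4.93 and 5.29 on EE2 arrays 9, 13, 15, 17 and 18, against 4.83, 4.81, 4.83, 4.73 and 4.78 on oil arrays 2, 5, 6, 8 and 16. All EE2 arrays lay above all oil arrays. Pnpla2 rose by 0.40 (SE 0.06, 1.32-fold, adjusted p = 2.99e-05 from limma). The rise was smaller, and still called, after quantile normalization (0.23, adjusted p = 0.00834 from limma) and with each array centred on its median (0.24, adjusted p = 0.00225).

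G0s2 (Entrez gene 14373), the inhibitor of Pnpla2, moved the opposite way. It stood at 9.26, 9.09, 7.67, 8.54 and 8.54 on EE2 arrays 9, 13, 15, 17 and 18, against 9.90, 10.18, 10.36, 8.92 and 9.22 on oil arrays 2, 5, 6, 8 and 16. The groups overlapped, since EE2 arrays 9 and 13 lay above oil array 8. The fall was 2.14-fold (log2 difference -1.10, SE 0.29, adjusted p = 0.00424 from limma). With sample number as covariate it was smaller and only just called (-0.83, adjusted p = 0.0464 from limma). G0s2 had the widest spread within groups of the 10 genes (pooled SD 0.51). EE2 livers averaged 8.62 ± 0.62, and CPZ livers, at 8.68 ± 0.24, and PBS livers, at 9.07 ± 0.48, lay closer to them than oil livers did, at 9.72 ± 0.62 (SD, n = 5 each).

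Lipe (Entrez gene 16890) stood at 5.18, 5.40, 5.49, 5.34 and 5.31 on EE2 arrays 9, 13, 15, 17 and 18, against 5.56, 5.77, 5.71, 5.75 and 5.81 on oil arrays 2, 5, 6, 8 and 16. The groups did not overlap, and Lipe fell by 0.38 (SE 0.10, 1.30-fold, adjusted p = 0.0049 from limma). Pnpla3 (Entrez gene 116939), a droplet-bound relative of Pnpla2, spanned 3.03 to 3.55 in EE2 livers and 3.00 to 3.56 in oil livers. Its difference of -0.14 (95% confidence interval -0.50 to 0.21, adjusted p = 0.504 from limma) was not called, and at these levels near the lower quartile a change could be missed. The EE2 and oil arrays did not overlap for 5 of the 10 genes, against 31.8% of all genes.

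Promoter windows from RefSeq (GRCm38.p6), of 250 bases before and 50 after a gene's start, were given for 9 of the 10 genes, with over 1 window for 3 of them. Those of Cideb, Plin4 and Pnpla2 are shown because these genes have 1 window each, did not overlap between EE2 and oil arrays and moved in different directions. Motifs were searched on both strands. The nuclear receptor half-site was searched as AGGTCA. The direct repeat known for PPAR and RXR was searched as that half-site repeated after any 1 base, and the estrogen response element as the half-site without its first base, followed by any 3 bases and its own reverse complement, so these motifs overlap with the half-site. The E-box was searched as CACGTG, and the CCAAT box by its name. The GC box was searched as GGGCGG. The TATA box was searched as TATAAA. Capitals mark matches, and the sequences run 5′ to 3′ on the gene's strand.
Cideb, chr14:55758375-55758674, minus strand: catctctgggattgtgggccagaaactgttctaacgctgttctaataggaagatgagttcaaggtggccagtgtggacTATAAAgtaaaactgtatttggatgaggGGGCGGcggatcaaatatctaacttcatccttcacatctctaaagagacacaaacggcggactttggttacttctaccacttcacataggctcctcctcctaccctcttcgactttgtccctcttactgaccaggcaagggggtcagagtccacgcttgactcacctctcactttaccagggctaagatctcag
Plin4, chr17:56109733-56110032, minus strand: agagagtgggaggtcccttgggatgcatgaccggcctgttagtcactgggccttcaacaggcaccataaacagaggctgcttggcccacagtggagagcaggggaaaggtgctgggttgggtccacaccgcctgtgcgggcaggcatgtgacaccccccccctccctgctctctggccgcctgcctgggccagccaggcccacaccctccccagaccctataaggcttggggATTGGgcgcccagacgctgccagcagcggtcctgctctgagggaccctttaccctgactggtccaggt
Pnpla2, chr7:141454938-141455237, plus strand: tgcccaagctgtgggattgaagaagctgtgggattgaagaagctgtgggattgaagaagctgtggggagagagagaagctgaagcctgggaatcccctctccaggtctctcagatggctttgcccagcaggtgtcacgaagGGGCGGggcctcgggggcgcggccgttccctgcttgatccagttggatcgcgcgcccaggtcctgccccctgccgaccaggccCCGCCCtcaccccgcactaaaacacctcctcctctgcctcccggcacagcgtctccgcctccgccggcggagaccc

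The Cideb window held TATAAA from base -172 and a GC box from base -144, counted from the start of the gene. The Plin4 window held CCAAT on the opposite strand from base -18, and the Pnpla2 window a GC box from base -109 and another, on the opposite strand, from base -26. Of 32851 windows of all genes 35.7% held a GC box, 37.4% CCAAT and 13.6% TATAAA. None of the windows of the 9 genes held the full estrogen response element or the direct repeat, which occur in 0.07% and 0.0396% of all windows. The half-site AGGTCA, in 16.3% of all windows, was found in the windows of Plin2, at base -218 on the opposite strand, and of Plin5, at base 14 of its window further inside the gene and at base -170 of the other. These letters describe the windows only.

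CPZ was then set against its own vehicle. None of the 10 genes was called with limma, where 0.796% of all genes were called, and none had an unadjusted p under 0.05. CPZ and PBS arrays overlapped for all 10, and 2.98% of all genes did not overlap. The differences ran from -0.39 for G0s2 to 0.19 for Plin5. Without PBS array 14 the G0s2 difference was -0.24, and with sample number as covariate -0.69; without PBS array 20 the Plin5 difference was 0.12. G0s2 stood at 8.31, 8.86, 8.75, 8.58 and 8.89 on CPZ arrays 1, 3, 4, 11 and 12, against 9.26, 8.81, 9.67, 9.20 and 8.40 on PBS arrays 7, 10, 14, 19 and 20. The groups overlapped, and the 95% confidence interval of the G0s2 difference, -0.997 to 0.217, leaves room for a large fall. Plin5 averaged 8.26 ± 0.08 in CPZ livers and 8.07 ± 0.23 in PBS livers (SD, n = 5 each), with an interval of -0.03 to 0.40 for the difference.

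The intervals were narrow for the abundant Cideb and for Pnpla2. Cideb differed by 0.02 (95% confidence interval -0.09 to 0.14), with 11.53, 11.60, 11.50, 11.55 and 11.66 on CPZ arrays 1, 3, 4, 11 and 12 and 11.55, 11.55, 11.55, 11.56 and 11.54 on PBS arrays 7, 10, 14, 19 and 20. Pnpla2 differed by -0.07 (interval -0.20 to 0.06), Plin2 by -0.06 (interval -0.28 to 0.16), Plin4 by -0.12 (interval -0.33 to 0.10) and Lipe by -0.0023 (interval -0.21 to 0.21). The low-level genes were bounded less tightly: Cidea differed by 0.08 (interval -0.25 to 0.40), Cidec by -0.16 (interval -0.50 to 0.18) and Pnpla3 by 0.02 (interval -0.33 to 0.37). On CPZ array 3 Pnpla3 stood at 4.19, its highest level on any array. Without CPZ arrays 1 and 11 and PBS array 20 none of the 10 was called, and the differences were -0.02 for Plin2, -0.25 for Plin4, 0.13 for Plin5, 0.05 for Cidea, 0.04 for Cideb, -0.15 for Cidec, -0.40 for G0s2, -0.05 for Pnpla2, 0.15 for Pnpla3 and 0.13 for Lipe.

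**Figure D2:**
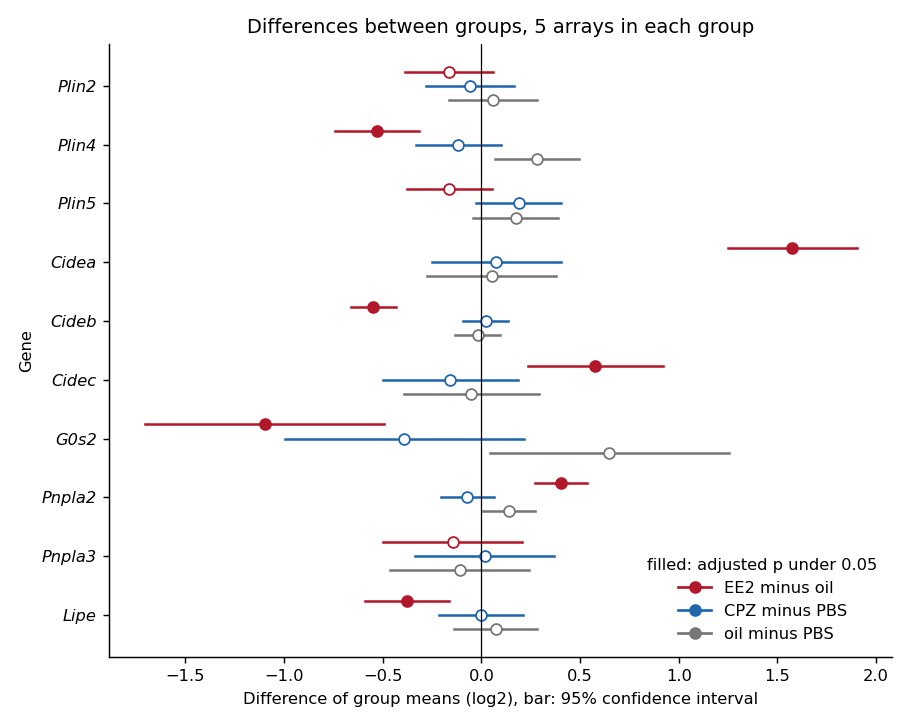
Log2 differences between group means of the 10 genes in 3 comparisons (EE2 minus oil, CPZ minus PBS, oil minus PBS), with 95% confidence intervals from limma; filled points passed the test. Of the EE2 differences 7 are filled, and all CPZ and vehicle differences are open.

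The vehicles were compared because each drug was read against a different one. With oil minus PBS, limma called none of the 10 genes, where 0.0486% of all genes were called. At the looser threshold of an unadjusted p under 0.05, 3 of the 10 passed. The share of all genes was not computed there, so this count has no background and is not read as a result. These were Plin4, which was 0.28 higher with oil (SE 0.10, adjusted p = 0.413), G0s2, 0.65 higher (SE 0.29, adjusted p = 0.536), and Pnpla2, 0.14 higher (SE 0.06, adjusted p = 0.553). Without PBS array 20 and the CPZ arrays 1 and 11 these differences were 0.22, 0.48 and 0.17, and that of G0s2 was 0.40 with sample number as covariate. For Plin4 and G0s2 the oil level lay on the far side of the PBS level from the EE2 level, whereas for Pnpla2 it lay between them. This comparison and the EE2 comparison share the oil arrays, so their values are not independent.

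The EE2 response was set against the CPZ response directly, as the difference of the 2 differences. Of the 10 genes 3 had a higher and 2 a lower response to EE2 than to CPZ, and over all genes 31.6% were called. The response of Cidea was higher by 1.50 (SE 0.22, adjusted p = 2.52e-05 from limma), that of Pnpla2 by 0.47 (SE 0.09, adjusted p = 4.24e-04) and that of Cidec by 0.73 (SE 0.23, adjusted p = 0.0205). The response of Cideb was lower, at -0.57 (SE 0.08, adjusted p = 9.45e-06), and that of Plin4 at -0.41 (SE 0.15, adjusted p = 0.0359), while Lipe missed the threshold at -0.37 (SE 0.14, adjusted p = 0.053), as did Plin5 at -0.35 (SE 0.15, adjusted p = 0.0729). Plin4 also lost its call when EE2 array 9, 17 or 18, oil array 2, 5 or 16, CPZ array 1, 11 or 12 or PBS array 14 or 20 was left out alone, and Lipe gained one without EE2 array 15, oil array 2, CPZ array 1 or PBS array 14 or 20. Plin5 was called without EE2 array 13 or 18 or PBS array 10 or 14, at -0.43 to -0.40, and with centred arrays (-0.49, adjusted p = 0.00936 from limma). Without CPZ arrays 1 and 11 and PBS array 20 together Plin4 was not called (-0.28, adjusted p = 0.181) and Lipe was (-0.50, adjusted p = 0.00747), with Cidea at 1.52, Cidec at 0.72, Pnpla2 at 0.45 and Cideb at -0.59, all called. G0s2 was not called, at -0.71 (SE 0.41, adjusted p = 0.204), so its fall with EE2 was not shown to differ from its CPZ difference. That value was -0.15 with sample number as covariate and -0.47 without EE2 array 15. The drugs were given in different vehicles and at different doses.

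Within groups the 10 genes did not vary as a block. EE2 array 13 had the highest Cidea, Cidec, Plin2 and Plin4 of its group and the lowest Pnpla3. EE2 array 15 had the lowest Cidea, Cidec and G0s2 and the highest Lipe. On PBS array 20 Plin2, G0s2, Plin4, Plin5 and Cideb were lowest of their group while Lipe and Pnpla2 were highest. Cideb varied least, with a pooled SD of 0.08 within groups, and Pnpla2 had 0.10.

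**Figure D3:**
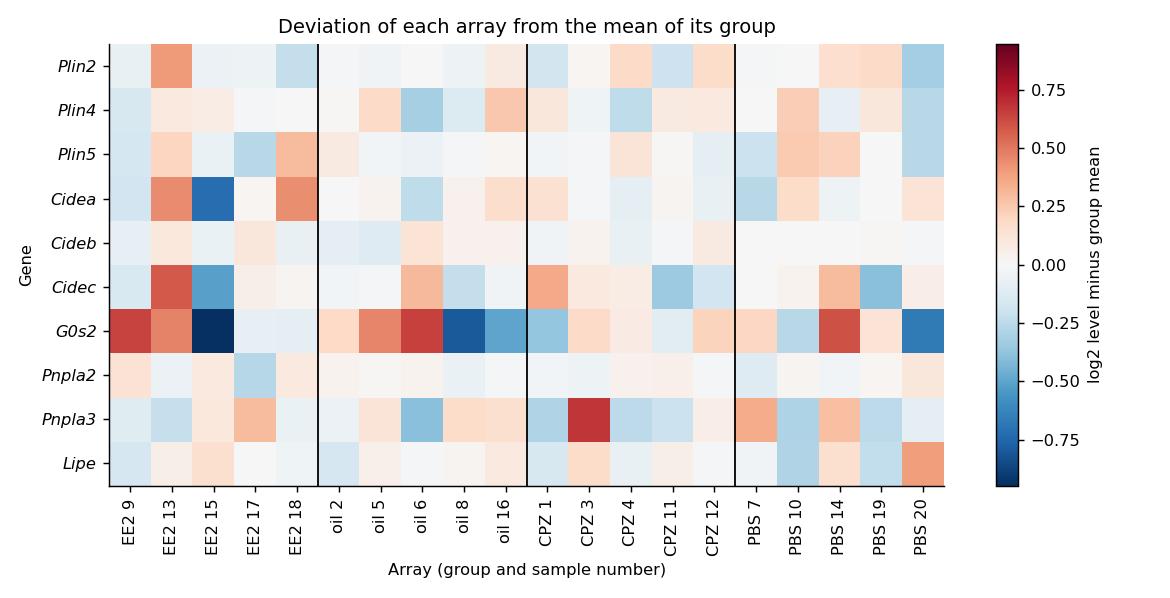
Deviation of the log2 level on each of 20 arrays from the mean of its group, for the 10 genes; red is above and blue below the group mean. G0s2 has the strongest colours, with a pooled SD of 0.51, and Cideb the palest, with 0.08.

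Likeness was measured as Pearson's r of the deviations from the 4 group means over the 20 arrays, and the 3 most alike of all genes are named as a description. They were Epdr1 (r = 0.87), Slc25a36 (0.84) and Ssr4 (0.79) for Cidea, and Col12a1 (0.87), Krt14 (0.85) and Gm20362 (0.85) for Cidec. For Plin2 they were Mdc1 (0.80), Chadl (0.79) and Mrps14 (0.76), and for Plin5 Dctd (0.84), Ttc9c (0.83) and Pex11a (0.79). For Plin4 they were Borcs6 (0.73), Pde6a (0.70) and Tmem120a (0.68), and for G0s2 Dydc1 (0.82), C87436 (0.80) and Siah2 (0.76). None of the 10 genes was among these most alike genes of another, and with 16464 genes searched over 20 arrays high values arise by selection.

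Other proteins of the droplet surface were called in both directions in EE2 livers. Of 12 measured genes 4 rose and 4 fell, against 2 and 7 with each array centred on its median, and the list median was -0.07, the same as that of all genes. With EE2 66.7% of this list was called, against 45.9% of all genes. The share was 60% for triglyceride synthesis, 70% for triglyceride export and lipophagy, 78.6% for transcription factors and 53.3% for PPARalpha targets. The droplet-bound dehydrogenases Hsd17b13 and Hsd17b11 fell by 0.81 (SE 0.06, adjusted p = 1.13e-09 from limma) and fell by 0.57 (SE 0.06, adjusted p = 2.89e-07). Fitm1, which partitions triglyceride into droplets, fell by 1.50 (SE 0.18, adjusted p = 1.04e-06), from limma, with 6.55 to 7.32 in EE2 livers and 8.09 to 8.56 in oil livers. Among the 4 that rose were Acsl3, by 0.92 (SE 0.13, adjusted p = 9.13e-06 from limma), and Plin3, given above. Abhd5, the activator of Pnpla2, stood at 7.74 in EE2 livers and 7.87 in oil livers and was not called (adjusted p = 0.172 from limma).

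Among genes of triglyceride synthesis 2 of 15 rose and 7 fell, with a list median of -0.14. Gpat3, an acyltransferase of the first step, rose 12.9-fold (log2 difference 3.69, SE 0.23, adjusted p = 6.35e-11 from limma), with 7.99 to 8.95 in EE2 livers and 4.24 to 5.46 in oil livers. Its relative Gpat4 fell by 0.67 (SE 0.09, adjusted p = 2.68e-06 from limma), and Dgat2, which makes triglyceride from diglyceride, fell by 0.53 (SE 0.07, adjusted p = 1.98e-06). The other gene that rose was Lpin1, a phosphatidate phosphatase, by 1.39 (SE 0.24), named after its value was seen.

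Of 16 other lipases and hydrolases 3 rose and 5 fell, with a list median of -0.15, and 10 fell with each array centred on its median. The called share of 50% was near the 45.9% of all genes. Ces1d, a carboxylesterase that hydrolyses stored triglyceride in hepatocytes, fell 3.05-fold (log2 difference -1.61, SE 0.11, adjusted p = 1.58e-10 from limma). Aadac fell by 0.90 (SE 0.05, adjusted p = 1.60e-11 from limma) and the monoglyceride lipase Abhd6 fell by 1.00 (SE 0.10, adjusted p = 1.18e-07). Among the 3 that rose was Pla2g15, by 0.66 (SE 0.09, adjusted p = 5.76e-06 from limma). Mgll, the classic monoglyceride lipase that follows Lipe, stood at 9.41 in EE2 livers and 9.31 in oil livers and was not called (adjusted p = 0.405 from limma). With CPZ the only called gene of these related lists was Ddhd1, a phospholipase, which rose by 0.33 (SE 0.08, adjusted p = 0.0468 from limma), and it was not called without CPZ arrays 1 and 11 and PBS array 20 (0.34, adjusted p = 0.159).

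Of 10 genes of triglyceride export and lipophagy 5 rose and 2 fell with EE2, the list median was 0.15, and 4 fell with each array centred on its median. Mttp, which loads triglyceride onto apolipoprotein B, rose by 0.39 (SE 0.06, adjusted p = 1.09e-05 from limma), Surf4, a cargo receptor for lipoproteins, by 0.29 (SE 0.05, adjusted p = 1.15e-04) and the lysosomal membrane protein gene Lamp1 by 0.35 (SE 0.04, adjusted p = 1.08e-06). Cideb, which acts on the same export route, fell in these livers, as given above.

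**Figure D4:**
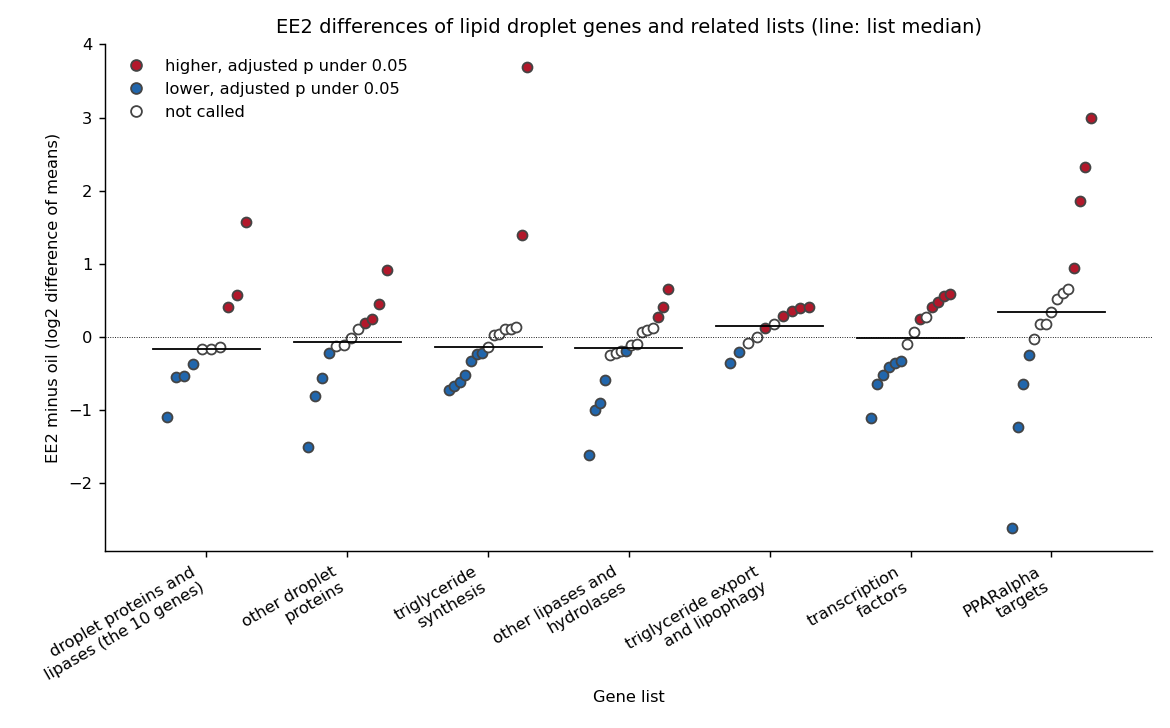
EE2 minus oil differences on the log2 scale for the 10 genes and for 6 related lists; each point is a gene, red where higher and blue where lower at an adjusted p under 0.05, and lines are list medians. Every list holds genes called in both directions, and Gpat3, at 3.69, is the highest point.

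Of 14 transcription factor genes 5 rose and 6 fell with EE2. Srebf1, which switches on lipogenic genes, fell by 1.11 (SE 0.14, adjusted p = 1.05e-06 from limma), Pparg, which drives Cidea, Cidec and Plin4 in fat cells, fell by 0.53 (SE 0.18, adjusted p = 0.0201), and Ppara, the main regulator of fat oxidation in hepatocytes, fell by 0.32 (SE 0.07, adjusted p = 9.77e-04). Their partner Rxra fell by 0.36 (SE 0.05, adjusted p = 1.48e-05 from limma) and Cebpa fell by 0.41 (SE 0.06, adjusted p = 2.20e-05). Mlxipl also fell, by 0.65 (SE 0.13, adjusted p = 5.11e-04 from limma). The estrogen receptor gene Esr1 rose by 0.56 (SE 0.11, adjusted p = 2.48e-04 from limma), Cebpb by 0.58 (SE 0.13, adjusted p = 0.00134) and Nr1i3 by 0.48 (SE 0.12, adjusted p = 0.00317). Foxo1 rose by 0.41 (SE 0.09, adjusted p = 5.27e-04 from limma) and Nr1i2 by 0.25 (SE 0.09, adjusted p = 0.0368). Of 15 PPARalpha targets 4 rose and 4 fell: the fatty acid uptake protein gene Cd36 rose 4.99-fold (log2 difference 2.32, SE 0.14, adjusted p = 1.92e-11 from limma) and Ehhadh 3.63-fold (1.86, SE 0.08, adjusted p = 1.88e-13), while Acaa1b fell by 1.23 (SE 0.09, adjusted p = 3.45e-10).

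Markers of other cells were read beside these results, because fat cells and macrophages also express several of the 10 genes. Of 6 measured adipocyte markers 1 rose and 2 fell with EE2. Against 45.9% of all genes, 50% of these were called, 72.7% of macrophage, 55.6% of stellate cell and 28.6% of neutrophil markers. For cholangiocyte markers the share was 16.7%, for skeletal muscle markers 20% and for hepatocyte markers 83.3%. The adiponectin gene Adipoq, a defining gene of fat cells, spanned 2.87 to 3.08 in EE2 livers and 2.94 to 3.46 in oil livers, near the lower quartile, and the leptin gene Lep averaged 2.64 in EE2 livers and 2.87 in oil livers. The adipocyte marker that rose was Fabp4, also known from macrophages and endothelium, with 12.67 ± 0.15 in EE2 livers and 7.66 ± 0.09 in oil livers (SD, n = 5 each; log2 difference 5.00, SE 0.10, adjusted p = 3.03e-19 from limma). The mean level of the 6 markers per array, 4.47 to 4.57 in EE2 livers and 3.79 to 4.05 in oil livers, thus rested on Fabp4. Of the macrophage markers Csf1r rose by 1.80 (SE 0.13), Cd163 by 1.79 (SE 0.16) and Clec4f by 1.68 (SE 0.13), while Trem2 and Gpnmb, known from lipid-laden macrophages, were not called (adjusted p = 0.436 and 0.347 from limma). Trem2 averaged 3.80 in EE2 livers and 3.69 in oil livers, and Gpnmb 4.03 and 4.16, and at such low levels a change could be missed. With CPZ 2 of 11 macrophage markers rose, Cd68 by 0.79 and Adgre1 by 0.63. Neither was called without CPZ arrays 1 and 11 and PBS array 20 (0.56 and 0.56, adjusted p = 0.0966 and 0.0871 from limma), and the count was 0 without PBS array 7 or 14 and 1 to 4 without each other CPZ or PBS array. Of 9 stellate cell markers 1 rose and 4 fell with EE2. Dcn rose by 0.36 (adjusted p = 1.76e-04 from limma), with 11.20 to 11.59 in EE2 livers and 10.95 to 11.01 in oil livers. Reln fell by 0.43 (SE 0.07), and Lrat, which makes the retinyl esters stored in droplets, fell by 0.50 (SE 0.15, adjusted p = 0.0118 from limma). Of 7 measured neutrophil markers 2 rose with EE2 and none fell: S100a8 rose by 3.88 (SE 0.31, adjusted p = 2.09e-09 from limma) and S100a9 by 3.42 (SE 0.30, adjusted p = 1.02e-08). The mean level of the 7 per array ran from 4.94 to 5.43 in EE2 livers and from 3.83 to 4.19 in oil livers. The list median was 0.16 and no other marker of the list was called, so this mean rested on S100a8 and S100a9. Of 6 cholangiocyte markers and of 5 skeletal muscle markers 1 each fell with EE2 and none rose. The part of these cell types in the results of the 10 genes was not tested.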

How the data were processed

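RNA of the left lateral liver lobe was hybridised to Affymetrix 3' arrays, per the labels. Per the submitters' processing notes the authors made the deposited log2 values with RMA; the genome build, probe definition and any filter were not stated by any source used here. The table held 17306 probe sets with levels of 1.91 to 14.2, and 16464 with a gene symbol were tested; 842 unnamed here stayed out. Array medians ran from 4.64 to 4.67 on EE2 arrays and from 4.47 to 4.54 on all other arrays. The array median thus went with the EE2 group, and the origin of this shift was not tested. Values were used as deposited, with no filter on low values, and all 10 genes were tested. The 4 group means were fitted together without covariates in limma 3.58.1 (R 4.3.3; lmFit, then contrasts.fit, then eBayes at defaults), with 16 residual degrees of freedom, two-sided tests and adjusted p-values by Benjamini-Hochberg. The fit was tested on simulated data.

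The 10 genes and the lists were chosen with earlier results of these data known. The rule names the 10 genes, up to 3 called genes per list with the smallest p and no overlap between groups, any gene of the list of transcription factors, and the 3 most alike genes of 6 of the 10. Abhd5, Plin3, Acsl3, Pla2g15, Mgll, Trem2, Gpnmb, Adipoq, Lep, Lrat, Lpin1, Alb, Lcn2 and Saa1 fall outside it and were chosen after their values were seen. Cell type markers were written as 7 lists. Alternatives were quantile normalization, arrays centred on their medians, leaving out the lowest 30% of genes, an intensity trend with robust prior, array weights, sample number as covariate, only the arrays of a comparison, and leaving out each array in turn. Leaving out CPZ arrays 1 and 11 and PBS array 20 was added after seeing the data.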

Additional observations from a re-analysis of the deposited data

How the results depend on the processing

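Of the 10 genes with EE2, 3 were higher in every alternative except where the lowest 30% of genes were left out, which gave 2 because Cidec is among those and could not be tested. When each array was left out in turn 4 to 5 were lower, against 4. With each array centred on its median the median difference of all genes with EE2 moved to -0.23, against -0.07 as deposited, and 17.4% of the called genes were higher, against 41.9%. Of the 10 genes 3 were then higher and 6 lower, as Plin2 (-0.33, adjusted p = 0.0116 from limma) and Plin5 (-0.32, adjusted p = 0.0087) joined Plin4, Cideb, G0s2 and Lipe, and Cidea, Cidec and Pnpla2 stayed higher. Centring also gave 2 higher and 7 lower among other droplet proteins, 10 lower among other lipases and 4 lower among export genes, and over all genes 2062 higher and 9784 lower, against 3166 and 4394. With CPZ and between the vehicles 0 of the 10 genes were called under every alternative, including each array left out. Over all genes with CPZ, sample number as covariate left 12 higher and 8 lower, against 73 and 58.

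For the EE2 response minus the CPZ response, 3 of the 10 genes were higher in every alternative, again with 2 where Cidec was left out, and 1 to 3 lower when each array was left out, against 2. Centred arrays gave 4 lower. Plin4 was not called without EE2 array 9, 17 or 18, oil array 2, 5 or 16, CPZ array 1, 11 or 12 or PBS array 14 or 20, at -0.41 to -0.35, nor with sample number as covariate (-0.48, adjusted p = 0.0938 from limma). Lipe was called in 11 of 27 alternatives. Ddhd1 with CPZ was the only called gene among other lipases, and quantile normalization, centring, intensity trend, covariate and own arrays each left 0. Differences that were not called turned sign for Pnpla3 with CPZ and centred arrays (-0.0043), for Lipe with CPZ (0.11 with sample number as covariate and 0.13 without CPZ arrays 1 and 11 and PBS array 20), and for oil minus PBS in Cideb (0.014 with sample number as covariate) and Plin2 (-0.0227 without the 3 arrays). Leaving out each array in turn gave -0.0727 to 0.0961 for Lipe and -0.151 to 0.105 for Pnpla3 with CPZ, -0.26 to 0.00664 for Pnpla3 between responses, and for oil minus PBS -0.0227 to 0.103 for Plin2, -0.0125 to 0.113 for Cidea, -0.0512 to 0.0114 for Cideb and -0.148 to 0.0243 for Cidec. The cause was not tested. No paired analysis was possible because no number in the labels is shared by samples of different groups. Levels near the lower quartile limit what Cidea, Cidec and Pnpla3 can show.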

Other observations

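On the arrays without EE2, low Plin2 occurred where Lcn2 and Saa1, genes of the acute phase response, were high. On CPZ arrays 1 and 11 and PBS array 20 Plin2 spanned 11.36 to 11.45, with Lcn2 at 9.39 to 10.41 and Saa1 at 12.04 to 12.72. On the other 7 CPZ and PBS arrays Plin2 spanned 11.64 to 11.87 and Lcn2 5.01 to 6.34, and on oil arrays Plin2 spanned 11.70 to 11.83 and Lcn2 4.73 to 5.86. On EE2 arrays, where Lcn2 spanned 9.32 to 10.75, Plin2 spanned 11.35 to 11.98. These arrays were noticed by their values, so no test was made.

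Gpat3, which rose with EE2, also lay higher on every CPZ array than on every PBS array, at 5.12 to 5.85 with CPZ and 3.89 to 4.99 with PBS. That difference of 0.79 (SE 0.23) was not called (adjusted p = 0.12 from limma), and without CPZ arrays 1 and 11 and PBS array 20 it was 0.61 (SE 0.29). Lpin1 had a difference of -0.93 (SE 0.24, adjusted p = 0.0699 from limma) with CPZ, where it averaged 9.53 in CPZ livers and 10.46 in PBS livers, against its rise with EE2, and without the 3 arrays the CPZ difference was -1.07 (SE 0.29, adjusted p = 0.141 from limma).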
